A study of Mus musculus with 6 samples.

Results

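The AP-1 family of transcription factors was followed in type 1 conventional dendritic cells (cDC1) as 10 genes, the Jun genes *Jun*, *Junb* and *Jund*, the Fos genes *Fos*, *Fosb* and *Fosl2*, the Batf genes *Batf*, *Batf2* and *Batf3*, and *Atf3*. They were taken by name from the 54532 genes counted in each library, and all 10 had enough reads to be tested. RNA came from cDC1 that had been grown from mouse bone marrow for 8 days with 80 ng/mL of FLT3L, a growth factor from which progenitors develop into DCs, and the sort took CD24+ CD11c+ B220- CD115- CD172a- cells. In 3 libraries the genotype was *c-Jun/JunB* fl/fl, and in 3 it was *c-Jun/JunB* fl/fl *Itgax*-Cre, called *c-Jun/JunB* Δ/Δ *Itgax*-Cre by the study. They are named fl/fl 1, 2 and 3 and Δ/Δ 1, 2 and 3 here. Both genotypes carry the floxed alleles of both genes, and the Cre recombinase is driven by the promoter of *Itgax* (CD11c), so that deletion begins only as cells come to express CD11c. Per the study's methods, its mice were females and males on a mixed background (129 Sv × C57BL/6) aged 8 to 16 weeks, and the study plots these libraries as individual mice.

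AP-1 factors are basic leucine zipper (bZIP) proteins that bind DNA as pairs. Jun proteins can pair with one another or with Fos, Batf and Atf proteins, whereas Fos and Batf proteins depend on a Jun partner to bind their sites well. The site of Jun and Fos pairs is TGACTCA, and pairs with Atf proteins favour the cyclic AMP response element (CRE) TGACGTCA. In DCs, pairs of Batf and Jun proteins also bind together with IRF4 or IRF8 at composite elements, and Batf3 is required for the cDC1 lineage. *Jun*, *Junb*, *Fos*, *Fosb* and *Atf3* are immediate early genes, which are transcribed within minutes of a signal, while *Jund* is expressed more steadily.

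Promoters of *Jun*, *Junb*, *Fos* and *Fosb* are shown because these are the floxed genes and the Fos genes with an unadjusted p under 0.05 between the genotypes (edgeR). The windows run from 250 bases before to 50 bases after the RefSeq start, 5′ to 3′ on the strand of the gene, on GRCm38.p6, and lie at chr4:95052173-95052472 (minus strand, *Jun*), chr8:84978699-84978998 (minus, *Junb*), chr12:85473640-85473939 (plus, *Fos*) and chr7:19309996-19310295 (minus, *Fosb*). Capitals mark TGACATCA in *Jun* and TGACG, the first bases of the CRE, in the others.
Jun: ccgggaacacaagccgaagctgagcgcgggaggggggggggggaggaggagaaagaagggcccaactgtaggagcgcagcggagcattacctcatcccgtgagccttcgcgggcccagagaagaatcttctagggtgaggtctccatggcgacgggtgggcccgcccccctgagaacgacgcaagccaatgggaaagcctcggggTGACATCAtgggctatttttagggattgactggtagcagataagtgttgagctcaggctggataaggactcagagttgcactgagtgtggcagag
Junb: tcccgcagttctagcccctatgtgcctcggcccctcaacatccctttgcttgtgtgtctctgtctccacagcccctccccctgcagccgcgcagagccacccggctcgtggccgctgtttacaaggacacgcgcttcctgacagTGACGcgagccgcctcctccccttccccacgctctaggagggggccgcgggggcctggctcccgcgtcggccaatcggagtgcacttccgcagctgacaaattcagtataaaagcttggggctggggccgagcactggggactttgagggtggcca
Fos: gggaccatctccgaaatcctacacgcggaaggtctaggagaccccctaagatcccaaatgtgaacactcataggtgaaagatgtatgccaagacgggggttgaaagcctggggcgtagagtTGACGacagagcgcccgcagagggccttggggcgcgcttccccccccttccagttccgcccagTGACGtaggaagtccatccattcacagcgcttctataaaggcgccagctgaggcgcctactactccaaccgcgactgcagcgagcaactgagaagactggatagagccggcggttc
Fosb: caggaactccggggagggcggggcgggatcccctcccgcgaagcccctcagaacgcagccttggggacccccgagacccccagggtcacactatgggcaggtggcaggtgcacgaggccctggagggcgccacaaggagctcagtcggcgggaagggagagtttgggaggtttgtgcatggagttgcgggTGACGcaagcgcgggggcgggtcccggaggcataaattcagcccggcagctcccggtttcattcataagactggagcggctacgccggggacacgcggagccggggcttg

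Of the 10 genes, 9 had a window in RefSeq, all but *Batf2*. The window of *Jund* lies over 1 kb before the start of the gene model used for its counts. Motifs were searched on both strands. The window of *Jun* held TGACATCA, the site through which *Jun* is known to be controlled by its own product, 45 bases before the start, and 3.62% of all 32851 mouse windows of this length hold it. Neither TGACTCA, present in 5.2% of all windows, nor TGACGTCA, present in 1.79%, nor the CArG box of serum response factor, present in 1.63%, was found in any of the 9. Sites more than 250 bases before the start lie outside the windows and were not searched, so these genes may hold such sites there. TGACG, part of the CRE and searched only after the sequences had been seen, was found in 5 of the 9 (*Junb*, *Fos*, *Fosb*, *Batf* and *Atf3*) and in 20.8% of all windows. *Fos* held it at 2 places, 129 and 66 bases before the start, and *Junb* and *Fosb* once, 106 and 60 bases before it.

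Levels are given as CPM, the reads of a gene per 1000000 reads on genes after scaling with edgeR's TMM factors, and errors are the SD over 3 libraries. Values of single libraries are given in the order 1, 2 and 3. The libraries held 21693217 to 26788296 reads on genes. The test between genotypes was edgeR's quasi-likelihood test over 12894 genes with Benjamini-Hochberg adjustment, and a gene passed at an adjusted p under 0.05. Libraries within Δ/Δ differed from one another more than those within fl/fl, with a chi-square over genes of 31.0 to 42.9 per degree of freedom in Δ/Δ against 6.83 to 11.4 in fl/fl. In the cells sorted as cDC1, *Xcr1*, the chemokine receptor that defines cDC1, had 421 to 475 CPM in fl/fl and 122 to 201 in Δ/Δ (log2 fold change -1.42, SE 0.17, edgeR adjusted p = 0.00812), and *Clec9a*, a receptor for dead cells on cDC1, had 267 to 273 and 203 to 270.1 CPM. Of 10 cDC1 markers 3 passed (*Xcr1*, *Tlr3* and *Ifi205*), all lower in Δ/Δ, and the summed level of the 10 was 9390 to 9633 CPM in fl/fl and 7205 to 9052 in Δ/Δ. None of them passed without fl/fl 1 or without fl/fl 2, 1 did without fl/fl 3, and 6 did with DESeq2. Over all genes, 95, 95 and 201 passed without fl/fl 1, 2 and 3, against 500 with all 6 libraries. Of the 10 cDC1 markers, 3 had log2 fold changes above 0 (named after their values were seen). They were *Cadm1* (0.32, edgeR adjusted p = 0.0615), *Itgae* (1.10, edgeR adjusted p = 0.343) and *Id2* (0.04, edgeR adjusted p = 0.778). *Itgae* had 151, 206 and 258 CPM in the fl/fl and 201, 891 and 228 in the Δ/Δ libraries, so that its value rests on Δ/Δ 2.

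No AP-1 gene passed the test between the genotypes, against 3.88% of all tested genes, 2.03% higher and 1.85% lower in Δ/Δ. By edgeR's unadjusted p under 0.05, 3 of the 10 differed, *Junb*, *Fos* and *Fosb*, against 19.4% of all genes. The genotypes did not overlap in 4 of the 10 genes, against 26.0% of all genes. *Junb* and *Batf2* were lower in Δ/Δ, and *Fosb* and *Batf* were higher. The nearest libraries held 14 and 11 reads of *Batf2* and 376 and 351 reads of *Batf*, in both cases within counting error. The count of 4 and the 26.0% were both taken without regard to counting error. DESeq2's Wald test passed 2 of the 10, *Junb* and *Fosb*, against 8.56% of all genes, and limma-voom none, against 4.08%. In bulk RNA, fewer cells with a transcript and less of it per cell cannot be told apart.

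**Figure D1:**
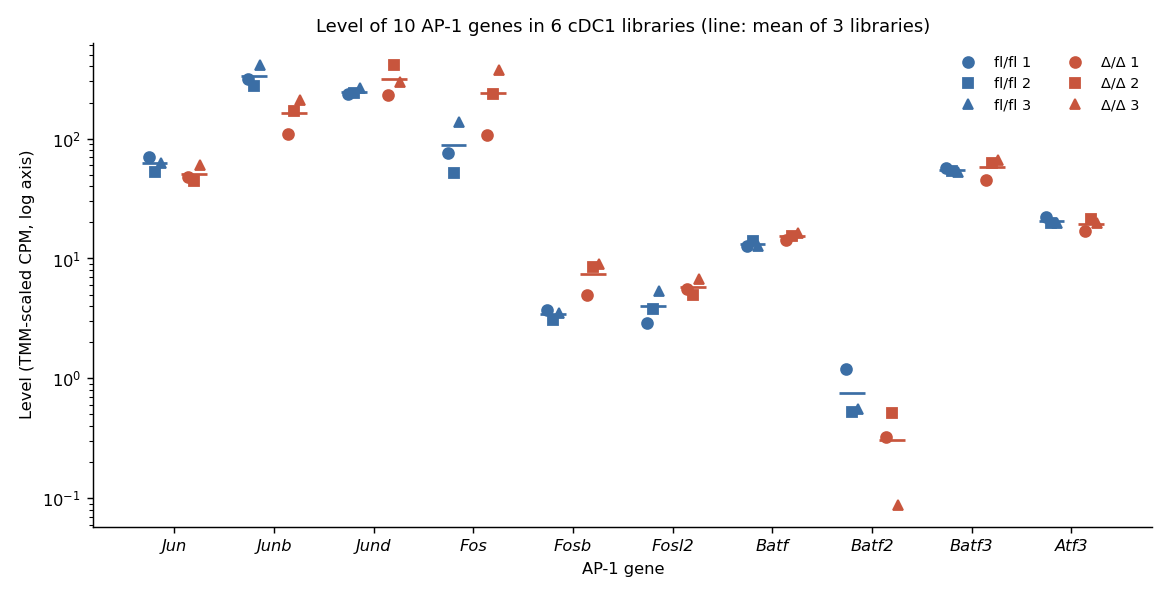
Level of the 10 AP-1 genes (TMM-scaled CPM, log axis) in each fl/fl library (blue) and each Δ/Δ library (red), with a line at the mean of 3 libraries. *Junb* runs from 274 to 413 CPM in fl/fl and from 110.3 to 211 in Δ/Δ, whereas *Fosb* lies at 3.04 to 3.74 and 4.95 to 9.07.

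The floxed genes come first, since they check the labels. *Junb* (ENSMUSG00000052837.6, minus strand, chromosome 8, 84974484 to 84978718), which encodes JunB, had 314, 274 and 413 CPM in the fl/fl libraries and 110.3, 171 and 211 CPM in the Δ/Δ libraries. Every Δ/Δ library lay below every fl/fl library, but none was near 0. The mean was 334 ± 71.4 CPM in fl/fl and 164 ± 50.9 in Δ/Δ, a ratio of 2.03 (log2 fold change -1.02, SE 0.25, 95% interval -1.60 to -0.44, edgeR adjusted p = 0.0729). Without Δ/Δ 1, which had the lowest level, the log2 fold change was -0.80 and *Junb* passed (edgeR adjusted p = 0.0359). Over 13 alternatives the adjusted p ran from 1.19e-04 (DESeq2's Wald test) to 0.228 (edgeR without fl/fl 1). The 13 leave out edgeR's glmTreat, which tests against a log2 fold change of 1 and passed 0 AP-1 genes. More genes passed over the whole table as well without Δ/Δ 1, 1320 against 500. The last 351 bases of *Junb* overlap *Prdx2* on the other strand, a peroxidase gene that itself fell in Δ/Δ (log2 fold change -0.44, SE 0.09, edgeR adjusted p = 0.0479), and of the 75-base stretches of *Junb* transcripts 4.74% occur in *Prdx2* transcripts in the opposite sense. The part of this overlap in the result was not tested.

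*Jun* (ENSMUSG00000052684.4, minus strand, chromosome 4, 95049034 to 95052222) is a gene of 1 exon that encodes c-Jun. It had 70.9, 52.4 and 63.1 CPM in the fl/fl libraries and 48.1, 44.2 and 60.4 CPM in the Δ/Δ libraries, so that the genotypes overlapped through Δ/Δ 3. The mean was 62.1 ± 9.26 in fl/fl and 50.9 ± 8.45 in Δ/Δ (log2 fold change -0.29, SE 0.15, 95% interval -0.64 to 0.06, edgeR adjusted p = 0.345). The log2 fold change stayed between -0.43 and -0.18 with any 1 library left out, and the adjusted p between 0.197 and 0.707. The floxed stretch of either gene was not stated, and the counts cover whole genes, so how many cells carried a deletion cannot be read from *Jun* and *Junb*. *Itgax*, whose promoter drives the Cre, had 114, 128 and 153 CPM in the fl/fl and 44.7, 55.1 and 69.0 in the Δ/Δ libraries and fell (log2 fold change -1.22, SE 0.17, edgeR adjusted p = 0.0147).

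*Jund* (ENSMUSG00000071076.6, plus strand, chromosome 8, 70698949 to 70700616), the Jun gene that was left intact, is also a gene of 1 exon. It had 237, 239 and 264 CPM in the fl/fl libraries and 233, 414.0 and 297 CPM in the Δ/Δ libraries. Thus, Δ/Δ 2 and Δ/Δ 3 lay above all fl/fl libraries and Δ/Δ 1 below them (log2 fold change 0.35, SE 0.19, 95% interval -0.10 to 0.80, edgeR adjusted p = 0.362). *Gm11175* lies inside *Jund* on the other strand with 7.93 to 9.24 CPM in fl/fl and 6.76 to 10.6 in Δ/Δ. Summed over the 3 Jun genes, the level was 642 CPM in fl/fl and 529.7 in Δ/Δ on average.

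Among the Fos genes, all 3 had a log2 fold change above 0. *Fos* (ENSMUSG00000021250.13, plus strand, chromosome 12, 85473890 to 85477273), which encodes c-Fos, had 76.1, 52.1 and 136 CPM in the fl/fl libraries and 106, 236 and 377 CPM in the Δ/Δ libraries. The mean was 88.2 ± 43.4 in fl/fl and 239.8 ± 135 in Δ/Δ, 2.72-fold higher. *Fos* also varied widely among libraries of 1 genotype, with the highest library at 2.62 times the lowest in fl/fl and at 3.54 times in Δ/Δ, and the genotypes overlapped through fl/fl 3 and Δ/Δ 1 (log2 fold change 1.44, SE 0.50, 95% interval 0.27 to 2.62, edgeR adjusted p = 0.178). Without Δ/Δ 1 the log2 fold change was 1.80 and *Fos* passed (edgeR adjusted p = 0.0284), in a range of 0.0284 to 0.454 over 13 alternatives.

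*Fosb* (ENSMUSG00000003545.3, minus strand, chromosome 7, 19302696 to 19310051), which encodes FosB and a shorter form that lacks the C-terminal activation domain, was expressed at lower levels. It had 3.74, 3.04 and 3.52 CPM in the fl/fl libraries and 4.95, 8.44 and 9.07 CPM in the Δ/Δ libraries. All Δ/Δ libraries lay above all fl/fl libraries, with means of 3.43 ± 0.358 and 7.48 ± 2.22, a 2.18-fold difference (log2 fold change 1.12, SE 0.26, 95% interval 0.51 to 1.73, edgeR adjusted p = 0.0637). Without Δ/Δ 1 the log2 fold change was 1.35 and *Fosb* passed (edgeR adjusted p = 0.00776). Over 13 alternatives the adjusted p ran from 0.00345 (DESeq2's Wald test with its own filter) to 0.25 (edgeR without fl/fl 2). *Fosl2* (ENSMUSG00000029135.10, plus strand, chromosome 5, 32135801 to 32157842), which encodes Fra-2, had 2.89, 3.78 and 5.38 CPM in the fl/fl and 5.60, 4.99 and 6.69 in the Δ/Δ libraries. Its highest fl/fl library lay among the Δ/Δ libraries (log2 fold change 0.52, SE 0.26, 95% interval -0.10 to 1.14, edgeR adjusted p = 0.332). *Fosl1*, the Fos gene that encodes Fra-1 and is not among the 10, had 1 read over all 6 libraries.

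*Batf3* (ENSMUSG00000026630.9, plus strand, chromosome 1, 191097847 to 191108945), the Batf gene that cDC1 require, was the most abundant of the Batf genes. It had 57.3, 53.9 and 52.2 CPM in the fl/fl libraries and 45.2, 62.3 and 66.1 CPM in the Δ/Δ libraries. The Δ/Δ libraries lay on both sides of the fl/fl libraries (log2 fold change 0.09, SE 0.14, 95% interval -0.24 to 0.42, edgeR adjusted p = 0.778), and without Δ/Δ 3 the log2 fold change was -0.02.

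*Batf* (ENSMUSG00000034266.6, plus strand, chromosome 12, 85686669 to 85709087), whose product can stand in for Batf3, had 12.8, 13.9 and 12.6 CPM in the fl/fl and 14.2, 15.3 and 16.5 in the Δ/Δ libraries. The genotypes did not overlap, but the difference was small and *Batf* did not pass (log2 fold change 0.23, SE 0.11, 95% interval -0.03 to 0.49, edgeR adjusted p = 0.317). Its nearest libraries, fl/fl 2 with 376 reads and Δ/Δ 1 with 351, lay within counting error. *Batf2* (ENSMUSG00000039699.13, plus strand, chromosome 19, 6140983 to 6172476), an interferon-inducible family member, was near the limit of measurement, with 31, 14 and 13 reads in fl/fl and 8, 11 and 2 reads in Δ/Δ. It passed the filter on low counts through the fl/fl libraries, of which 3 lay above the limit against 1 of Δ/Δ. In CPM it had 1.20, 0.519 and 0.551 in fl/fl and 0.324, 0.513 and 0.0880 in Δ/Δ, so that fl/fl 2 and Δ/Δ 2 were nearly equal (log2 fold change -1.29, SE 0.63, 95% interval -2.78 to 0.21, edgeR adjusted p = 0.322). *Atf3* (ENSMUSG00000026628.13, minus strand, chromosome 1, 191170296 to 191218039), a stress-inducible factor that often acts as a repressor, had 22.4, 19.9 and 19.6 CPM in the fl/fl and 17.0, 21.3 and 19.7 in the Δ/Δ libraries. The genotypes overlapped (log2 fold change -0.09, SE 0.12, 95% interval -0.37 to 0.18, edgeR adjusted p = 0.713).

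**Figure D2:**
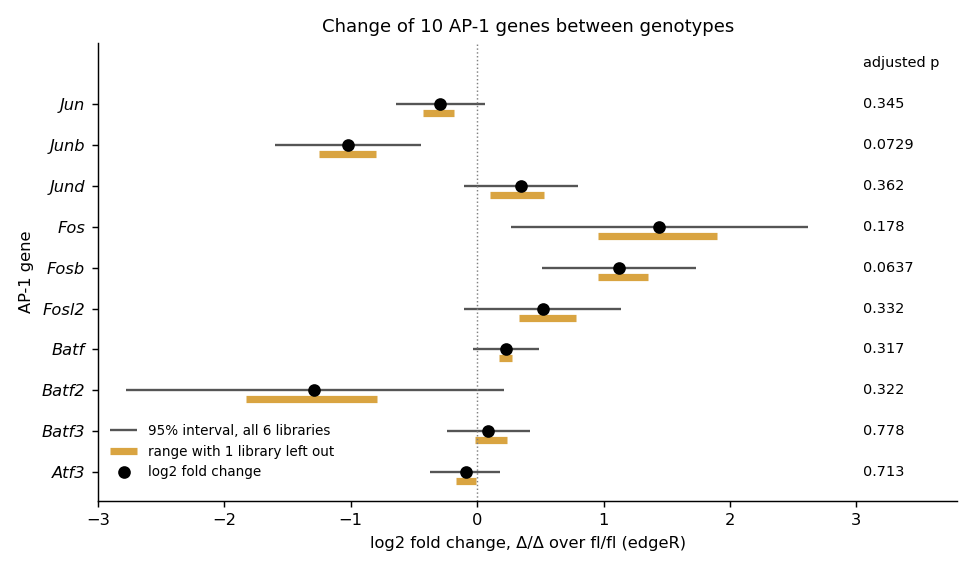
Log2 fold change of the 10 AP-1 genes, Δ/Δ over fl/fl, from edgeR (points) with the 95% interval (lines) and the range of the log2 fold change when any 1 library is left out (bars). The intervals of *Junb* (-1.60 to -0.44), *Fos* (0.27 to 2.62) and *Fosb* (0.51 to 1.73) leave out 0, and the adjusted p values at the right are all above 0.05.

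The summed level of the AP-1 genes overlapped between the genotypes, whereas the shares of *Junb*, *Fos* and *Fosb* in it did not. The 10 genes summed to 798, 713 and 969.7 CPM in the fl/fl and to 585, 978 and 1063 CPM in the Δ/Δ libraries, with means of 827 ± 131 and 876 ± 255. Within this total, *Junb* held 39.4, 38.4 and 42.6% of the AP-1 reads in fl/fl and 18.9, 17.5 and 19.9% in Δ/Δ, means of 40.1 ± 2.17% and 18.7 ± 1.21%. *Fos* held 9.53, 7.31 and 14.1% in fl/fl and 18.2, 24.1 and 35.4% in Δ/Δ, means of 10.3 ± 3.44% and 25.9 ± 8.76%. The shares of 6 other genes overlapped. The nearest shares of *Batf2* in the 2 genotypes differed by less than counting error, with 0.0568% in fl/fl 3 (13 reads, 95% Wilson interval 0.0332 to 0.0972%) and 0.0554% in Δ/Δ 1 (8 reads, 0.0281 to 0.109%). Each share rests on 14438 to 24164 AP-1 reads, and its Wilson interval, which covers counting error only, reached at most 0.798 percentage points to either side. With 3 libraries against 3 an exact permutation test cannot go below 0.1, and no test was made of the shares.

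The share of *Fosb* was 0.468, 0.426 and 0.363% in fl/fl and 0.845, 0.862 and 0.853% in Δ/Δ. It rests on 82 to 206 reads, and its Wilson interval reached up to 0.150 percentage points to either side. The SD of 0.00875 points over the Δ/Δ libraries is thus below counting error. *Jund* held 30.2 ± 3.22% in fl/fl and 36.7 ± 7.72% in Δ/Δ, and *Jun* 7.58 ± 1.20% and 6.14 ± 1.89%. Taken by subfamily, Jun genes gave 76.3 to 79.4% of the AP-1 reads in fl/fl and 53.5 to 66.9% in Δ/Δ, while Fos genes gave 8.27 to 15.0% and 19.98 to 36.9%. The share of the Batf genes was 8.42 ± 1.49% and 8.66 ± 1.35%. Shares are bound to each other, so that a lower share of the floxed genes raises the others. With *Jun* and *Junb* left out of the total, *Fos* held 18.4, 13.5 and 27.6% in fl/fl and 24.9, 31.0 and 47.6% in Δ/Δ, which overlap, whereas *Fosb* held 0.905, 0.786 and 0.712% against 1.16, 1.11 and 1.15%, which do not.

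**Figure D3:**
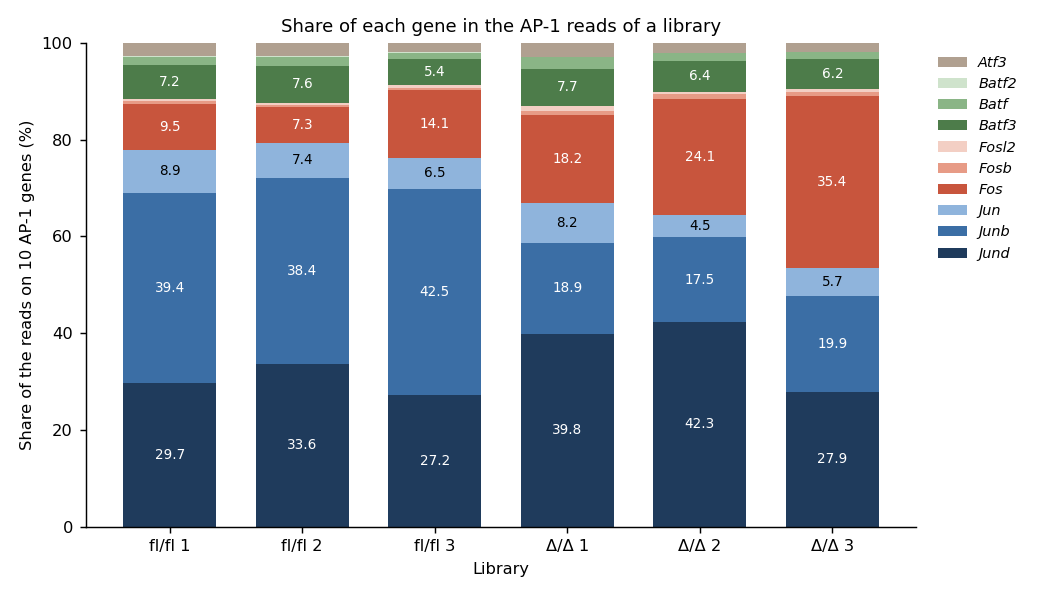
Share of each AP-1 gene (%) in the reads that the 10 genes took in each library, as stacked bars from 0 to 100. *Junb* takes 38.4 to 42.6% in fl/fl and 17.5 to 19.9% in Δ/Δ, and *Fos* 7.31 to 14.1% and 18.2 to 35.4%.

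Ratios between pairs of members were taken within single libraries. *Fos* reached 0.242, 0.191 and 0.331 of the *Junb* level in fl/fl 1, 2 and 3 and 0.965, 1.38 and 1.78 times that level in Δ/Δ 1, 2 and 3. *Jund* stood at 0.753, 0.875 and 0.639 times *Junb* in fl/fl and at 2.11, 2.42 and 1.40 times in Δ/Δ. Neither ratio overlapped between the genotypes. *Junb* over *Jun* was 4.44, 5.22 and 6.54 in fl/fl and 2.29, 3.86 and 3.50 in Δ/Δ, and these did not overlap either. In contrast, *Fos* over *Fosb* overlapped, with 17.2 to 38.8 in fl/fl and 21.5 to 41.6 in Δ/Δ. The ratios without overlap all contain *Junb*, whose level by itself did not overlap, so they are not results separate from it.

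To compare levels between genes, CPM were divided by the length of all exons of a gene in kb. In fl/fl libraries the order was *Jund* (148 ± 8.93 CPM per kb), *Junb* (145 ± 31.1), *Fos* (37.5 ± 18.5), *Batf3* (34.1 ± 1.63), *Jun* (19.5 ± 2.90), *Atf3* (9.57 ± 0.718), *Batf* (9.32 ± 0.510), *Fosb* (0.550), *Fosl2* (0.415) and *Batf2* (0.299). Library ranges overlapped, and the order differed between libraries, for *Jund* and *Junb*, *Fos* and *Batf3*, *Atf3* and *Batf*, and *Fosl2* and *Batf2*. The ranges of *Fosb* and *Fosl2* overlapped too, but *Fosb* was the higher of them in all 3 fl/fl libraries. In Δ/Δ libraries the order was *Jund* (189 ± 55.0), *Fos* (102 ± 57.5), *Junb* (71.4 ± 22.1), *Batf3* (36.2 ± 6.98), *Jun* (15.97 ± 2.65), *Batf* (10.9 ± 0.793), *Atf3* (8.98 ± 0.993), *Fosb* (1.20), *Fosl2* (0.595) and *Batf2* (0.122), and ranges overlapped only between *Jund* and *Fos*, in this order in all 3 libraries, and between *Fos* and *Junb*, in this order in 2. With the longest transcript as the length, 4 of the 10 genes kept their place in the fl/fl order and 8 in the Δ/Δ order.

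The levels of *Junb* and *Fos* ranked the libraries alike. Within fl/fl both were highest in fl/fl 3 and lowest in fl/fl 2, and within Δ/Δ both were highest in Δ/Δ 3 and lowest in Δ/Δ 1. Of all tested genes 3.57% had this order within both genotypes, and of the 24 immediate early genes outside AP-1 that were listed, 5 had it, *Egr1*, *Ier2*, *Ier5*, *Zfp36* and *Btg2*. This count was made, and these genes are named, after their values had been seen. *Ier2*, an immediate early gene of unsettled function, had 71.3, 59.5 and 94.5 CPM in the fl/fl and 110.4, 221 and 263 in the Δ/Δ libraries (log2 fold change 1.40, edgeR adjusted p = 0.0627). *Egr1*, a zinc finger factor induced together with *Fos*, had 10.9, 4.89 and 49.97 CPM in the fl/fl and 22.1, 220.5 and 309 in the Δ/Δ libraries (log2 fold change 3.07, edgeR adjusted p = 0.188). *Zfp36*, whose product brings down unstable mRNAs, had 254, 234 and 369.6 CPM in the fl/fl and 340.0, 669 and 743 in the Δ/Δ libraries.

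**Figure D4:**
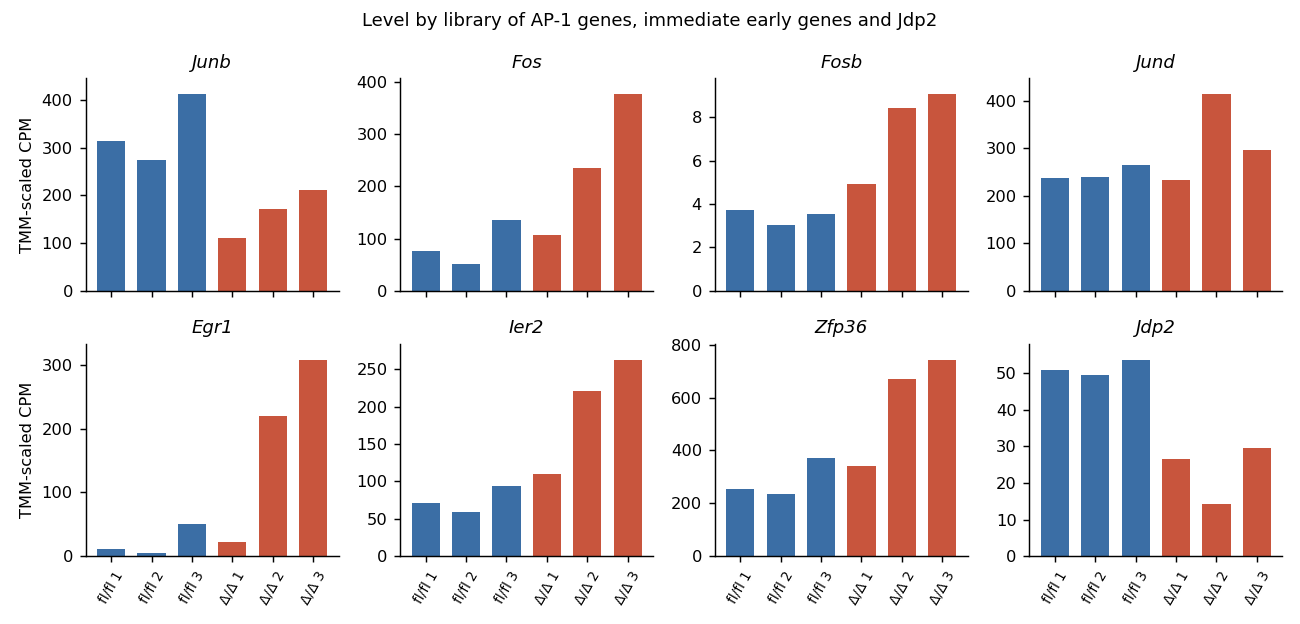
Level in CPM, from 0, in each fl/fl (blue) and each Δ/Δ library (red) of *Junb*, *Fos*, *Fosb*, *Jund*, the immediate early genes *Egr1*, *Ier2* and *Zfp36*, and *Jdp2*. In Δ/Δ 1 all but *Jdp2* of these genes have their lowest Δ/Δ level, and *Jdp2* lies at 49.7 to 53.7 in fl/fl and 14.4 to 29.5 in Δ/Δ.

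Of the 24 immediate early genes, 1 passed (6 by DESeq2), *Klf4*, a zinc finger factor of myeloid cells, which was higher in Δ/Δ (71.1 to 98.2 CPM in fl/fl and 133 to 203 in Δ/Δ, log2 fold change 0.97, SE 0.18, edgeR adjusted p = 0.0321). The median log2 fold change of the list was 0.51, against 0.00 over all tested genes. Without Δ/Δ 1, 12 of the 24 passed, against 1320 of 13250 over all tested genes. Without any 1 of the fl/fl libraries none of the 24 passed, and over all genes 95, 95 and 201 did without fl/fl 1, 2 and 3. The summed level of the 24 was 2153, 2016 and 2478 CPM in the fl/fl and 2266, 3897 and 3855 in the Δ/Δ libraries. It was lowest in the same library of each genotype as *Fos*, and its part in the values of *Fos*, *Fosb* and *Junb* was not tested. Heat shock genes, which respond to cell handling, had a summed level of 2366 to 2430 CPM in fl/fl and 2233 to 2442 in Δ/Δ. *Hspa8* gave 1759 to 1779 of it in fl/fl and 1594 to 1810 in Δ/Δ (named after its values were seen). None of 8 passed by edgeR, DESeq2 or limma-voom, and 3 had an unadjusted edgeR p under 0.05, against 19.4% of all genes. The median log2 fold change of the 8 was 0.19, and 3 were higher and 0 lower without overlap, against 26.0% of all genes.

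Among the genes that act with AP-1, *Irf8*, the IRF partner that defines cDC1, had 2771, 2707 and 2650 CPM in the fl/fl and 2727, 2875 and 2774 in the Δ/Δ libraries (log2 fold change 0.04, edgeR adjusted p = 0.687). *Irf4*, the other IRF partner at composite elements, had 27.4, 32.1 and 43.9 CPM in the fl/fl and 55.6, 71.8 and 120.0 in the Δ/Δ libraries. Its genotypes did not overlap, and it did not pass (log2 fold change 1.26, SE 0.30, edgeR adjusted p = 0.0699). Of 24 genes of the JNK, ERK and p38 kinases and the factors upstream of AP-1, 2 passed, *Mapk11*, a p38 kinase (log2 fold change 0.86, SE 0.18, edgeR adjusted p = 0.0494), and *Mapkapk2*, a kinase downstream of p38 (log2 fold change 0.26, SE 0.06, edgeR adjusted p = 0.0495), both higher. With limma-voom, or without any 1 fl/fl library, none of the 24 passed. None of 8 genes for the turnover of AP-1 proteins passed by edgeR, DESeq2 or limma-voom (1 by edgeR's unadjusted p under 0.05), with a median log2 fold change of 0.05.

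Other bZIP genes were listed for comparison, and of 35 with 31 tested, 2 rose and 1 fell. *Cebpa* (35.0 to 41.8 CPM in fl/fl, 61.7 to 76.4 in Δ/Δ, log2 fold change 0.84, edgeR adjusted p = 0.0122) and *Cebpd* (31.3 to 32.3 and 41.6 to 48.7 CPM, log2 fold change 0.55, edgeR adjusted p = 0.0187), both C/EBP factors of myeloid cells, were higher in Δ/Δ. *Atf6*, a sensor of unfolded protein in the ER, was lower (log2 fold change -0.33, edgeR adjusted p = 0.0279). Without fl/fl 1 or without fl/fl 2 none of the 31 passed. The median log2 fold change was 0.14. Of the 35 genes, 8 were higher and 8 lower without overlap, against 26.0% of all tested genes. The 8 lower ones include the untested *Hlf*, which had at most 2 reads in a library.

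*Jdp2* (ENSMUSG00000034271.16, plus strand, chromosome 12, 85599027 to 85639878), a bZIP gene whose product pairs with Jun proteins and represses AP-1 sites, lies between *Fos* and *Batf*, which are 209.4 kb apart. It had 50.8, 49.7 and 53.7 CPM in the fl/fl and 26.6, 14.4 and 29.5 in the Δ/Δ libraries, with no overlap, and was just short of passing (log2 fold change -1.13, SE 0.24, edgeR adjusted p = 0.0509). The sign of this log2 fold change was opposite to that of its neighbours *Fos* (1.44) and *Batf* (0.23), neither of which passed (edgeR adjusted p = 0.178 and 0.317). *Gm47863*, which starts beside *Jdp2* on the other strand, had a log2 fold change of -1.46 (edgeR adjusted p = 0.234), *Gm33312* had 3 reads in all and *Gm32296* had none. *Batf3* and *Atf3* are 61.4 kb apart on chromosome 1, with the untested *Gm38161* and *Fam71a* between them.

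Of 18 textbook targets of AP-1, 16 were tested. *Plaur*, the urokinase receptor gene, rose, with 3.39, 3.56 and 3.90 CPM in the fl/fl and 22.9, 24.4 and 16.4 in the Δ/Δ libraries (log2 fold change 2.55, SE 0.18, edgeR adjusted p = 0.00149). *Spp1*, which encodes osteopontin, fell, with levels of 39.0, 34.5 and 26.1 in fl/fl and 18.0, 10.4 and 11.1 CPM in Δ/Δ (log2 fold change -1.33, SE 0.24, edgeR adjusted p = 0.0313). The other 14 did not pass, and 1 of the 16 did when Δ/Δ 3 or any 1 fl/fl library was left out, while 5 did with DESeq2. The median log2 fold change was -0.01.

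Some markers of other cells differed between the genotypes as well. cDC2 markers summed to 137 to 240.2 CPM in fl/fl and 325 to 456 in Δ/Δ, with *Cd209a* (39.1 to 69.2 CPM in fl/fl and 196 to 268 in Δ/Δ) and *Cd4* (0.617 to 1.74 and 3.97 to 6.76) the 2 of 9 that passed, both higher (1 with Δ/Δ 3, fl/fl 1 or fl/fl 2 left out). *Sirpa* (CD172a), against which the cells were sorted, had a log2 fold change of -0.21 (edgeR adjusted p = 0.430). Monocyte and macrophage markers summed to 2553 to 2991 and 3549 to 4413 CPM, with *Ccr2* and *Adgre1* the 2 of 9 tested that passed, both higher (0 without fl/fl 2, and 1 with Δ/Δ 3, fl/fl 1 or fl/fl 3 left out). *Csf1r* (CD115), also sorted against, stayed between 3.58 and 6.80 CPM in all libraries. pDC markers summed to 246 to 265 and 266 to 318 CPM, with *Ccr9* the 1 of 7 tested that passed, higher. The log2 fold change was above 0 in 6 of the 7, among them *Siglech* (1.44, edgeR adjusted p = 0.0571, named after its values were seen). The other was *Bst2*, with a log2 fold change of -0.41 (edgeR adjusted p = 0.0572). Of 7 B cell markers 5 were tested, of 9 neutrophil markers 4, of 8 T and NK cell markers 1 and of 6 basophil and mast cell markers 1 (*Kit*), and none of these passed by edgeR or limma-voom. By edgeR's unadjusted p under 0.05, 2 neutrophil and 1 basophil and mast cell marker differed, and DESeq2 passed 2 neutrophil markers. T and NK cell markers summed to at most 1.11 CPM, neutrophil markers to 18.6 and B cell markers to 49.96, and the basophil and mast cell list to 288 to 464, of which *Kit* gave 288 to 462. Among the untested genes of that list are *Mcpt8* and *Prss34*, basophil proteases, and *Cpa3*, a protease of mast cells and basophils. All 3, named after their values were seen, were highest in Δ/Δ 2 and higher in every Δ/Δ library than in any fl/fl library. Of all tested genes, 26.0% showed no overlap in either direction. The nearest libraries held 4 and 5 reads of *Mcpt8*, 6 and 10 of *Prss34* and 3 and 3 of *Cpa3*, within counting error. *Mcpt8* had 0, 1 and 4 reads in fl/fl and 5, 103 and 13 in Δ/Δ. *Prss34* had 3, 6 and 0 reads in fl/fl and 10, 118 and 29 in Δ/Δ. *Cpa3* had 0, 3 and 0 reads in fl/fl and 3, 51 and 9 in Δ/Δ, and all 3 genes stayed at or under 5.50 CPM. Mature DC genes summed to 1123, 807 and 978 CPM in the fl/fl and 353, 1946 and 529.7 in the Δ/Δ libraries, and none of 10 passed by edgeR or limma-voom (1 by DESeq2 and 1 by edgeR's unadjusted p under 0.05). The part of these cells and states in the levels of the AP-1 genes was not tested.

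Genes whose level followed that of a member most closely over the 6 libraries were named by Pearson's r of log2 CPM, as a description in which the libraries of both genotypes are pooled. For *Junb* they were *Dhx34*, *Rtcb* and *Bphl* (r of 0.997, 0.988 and 0.988), for *Jun* *Hyal1*, *Zfp667* and *Tbc1d19* (0.983, 0.979 and 0.975), for *Fos* *Zxdb*, *Wasf2* and *Rplp0* (0.994, 0.991 and 0.990) and for *Fosb* *Ttyh3*, *Nfkb1* and *H2-K2* (0.999, 0.993 and 0.993). None of these 12 genes passed the test, with log2 fold changes of -0.51 to 0.77.

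None of the members' 75-base stretches, the length of a read, occurred exactly in the same sense in annotated transcripts of another gene. Copies with mismatches, or outside the annotated transcripts, were not searched for. In the opposite sense, 5.07% of those of *Jun* occurred in *Junos*, which had 5 to 19 reads, and 45.9% of those of *Jund* in *Gm11175*. The kit keeps strand, but the strand setting behind the deposited counts was not stated.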

How the data were processed

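RNA-seq of 6 cDC1 libraries, 3 of each genotype, was analysed. Per the labels and the study's methods, libraries of poly(A) RNA kept the strand and were read as pairs of 75 bases, and the authors aligned reads with STAR 2.6.1a to GRCm38 with Gencode gene models. The authors deposited raw counts of uniquely mapped reads per gene, without normalization or pooling. Reads outside genes stayed out of all totals, which left 79.1 to 79.7% of reads. Gene identifiers were matched to GENCODE M21 without their version (54495 of 54532).

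Counts were fitted with edgeR 4.0.16 (TMM factors, filterByExpr at min.count 10 and min.total.count 15, then glmQLFTest after glmQLFit with genotype as the only term), with Benjamini-Hochberg adjustment over 12894 genes. SE is the log2 fold change over the root of F. Other settings tried were limma-voom (limma 3.58.1), the Wald test of DESeq2 1.42.0 and its size factors within edgeR, glmTreat, no filter, a stricter filter (10 reads in 3 libraries and a mean of 1 CPM), a replicate term and each library left out. A DESeq2 fit with its own filter and the DESeq2 scaling of the members without overlap were chosen after seeing the data. The steps were tested on simulated data.

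A gene without reads is limited by 3 reads pooled over a genotype, 0.0392 CPM in fl/fl and 0.0436 in Δ/Δ (this limit covers counting error, since PCR duplicates were kept). The members and all gene lists were chosen with earlier results of these data known. The genes named by rule are the members, *Itgax*, *Irf4*, *Irf8*, at most 3 passing genes of each direction and 3 defining markers per list, the 3 genes most like each of 4 members, and genes between neighbouring members. Named outside this rule are *Prdx2*, *Gm11175* and *Junos*, which overlap members, *Fosl1*, *Hlf* and the genes marked as named after their values were seen. Promoters are from RefSeq. Protein sequences were not used here. Python 3.11.15 was used.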

Additional observations from a re-analysis of the deposited data

How the results depend on the processing

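The number of AP-1 genes that passed was 0 with DESeq2's size factors, limma-voom, glmTreat and the stricter filter, as in the edgeR test. It was 2 with DESeq2's Wald test, 2 with that test under its own filter (added after seeing the data) and 2 with no filter, each time *Junb* lower and *Fosb* higher (1 and 1). With 1 library left out it was 0 to 3 (0 to 2 higher, 0 to 1 lower), with 3 without Δ/Δ 1. With the replicate block 1 passed, *Junb* (log2 fold change -1.05, edgeR adjusted p = 0.0370). The labels do not say whether the replicate numbers pair the libraries. Correlations of deviations from the genotype means were 0.091, -0.15 and 0.20 for numbers 1, 2 and 3, and -0.22 to 0.15 between unlike numbers. With 3 libraries of each genotype these values cannot settle whether they were paired. Over all genes, 500 passed, with 1104 for DESeq2, 1093 under its own filter, 762 with no filter, 65 with glmTreat, 417 with the replicate block and 95 to 1320 with 1 library left out. The log2 fold change of *Batf3* turned to -0.02 without Δ/Δ 3 and ran up to 0.24 with 1 library left out, and those of the other 9 genes kept their sign under every alternative that gave a value (*Batf2* was removed by the stricter filter). The cause of these shifts was not tested. Depth limits *Batf2*, with 2 to 31 reads.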
